A study of Mus musculus with 13 samples.

Results

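The 10 genes described here encode nuclear-coded proteins of the mitochondrion and were chosen by name: the chaperones Hspd1, Hspe1, Hspa9 and Trap1, the proteases Lonp1, Clpp and Yme1l1, the mitochondrial DNA transcription proteins Tfam and Polrmt, and the transcription factor Atf5. They are 10 of the 53392 genes counted in whole-liver RNA of 13 female mice. All mice were homozygous for a Rosa26-loxP-stop-loxP-rtTA allele and carried Albumin-Cre, which is active in hepatocytes. The ASAH+ mice also carried a TRE-ASAH1 transgene, so that doxycycline (Dox) switches on the ceramidase ASAH1 in their hepatocytes, and the ASAH− littermates did not carry it. Every mouse was 8 to 14 weeks old and took 28% of its calories as ethanol for 4 weeks. The ASAH− Etoh-Dox group (n = 4) and the ASAH+ Etoh-Dox group (n = 5) received Dox at 200 mg/l in this diet, and the ASAH+ Etoh group (n = 4) received none. Titles and descriptions of the ASAH+ samples contradict each other on Dox, and the groups follow the descriptions, which the induction labels match. RNaseq, read as CPM (counts scaled to library totals adjusted by edgeR's TMM factors), gave 9668 to 15935 CPM of Asah1 in the ASAH+ Etoh-Dox mice and 40.0 to 55.0 CPM in the other groups.

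Most mitochondrial proteins are made in the cytosol, imported unfolded, and folded in the matrix by the Hsp70 chaperone of the mitochondrion and by the Hsp60-Hsp10 chamber. Damaged matrix proteins are degraded by the Lon and ClpXP proteases, and TFAM and the mitochondrial RNA polymerase package and transcribe the mitochondrial genome. When proteins in the matrix misfold, ATF5 is one of the factors that can raise chaperone and protease genes, a response named the mitochondrial unfolded protein response. Ethanol oxidation in liver takes place partly in mitochondria, and tetracyclines such as Dox can inhibit the mitochondrial ribosome. The 3 groups allow the transgene to be compared under the same diet (ASAH+ against ASAH− on Etoh-Dox), and the diet with Dox to be compared with the diet without it. No comparison isolates Dox: ASAH+ Etoh-Dox against ASAH+ Etoh also differs in ASAH1 induction, and ASAH− Etoh-Dox against ASAH+ Etoh also differs in the transgene, so that these cannot be told apart in the 3 comparisons with ASAH+ Etoh.

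Hspd1 and Hspe1 lie head to head on chromosome 1, and their annotated transcripts start on opposite strands and overlap at their starts, so a window upstream of one is within or near the start of the other. RefSeq (GRCm38.p6) gave a promoter window of 300 bases, from 250 bases before a start site to 50 after it, for 9 of the 10 genes. Windows of 3 genes are shown with matched motifs in capitals. That of Hspe1 (chr1:55087898-55088197, plus strand) is shown because it overlaps a window of Hspd1 on the other strand. Whether it drives either gene was not tested. Those of Tfam (chr10:71237995-71238294, minus strand) and Polrmt (chr10:79746532-79746831, minus strand) are shown because both genes serve mitochondrial transcription and their windows hold motifs of factors known for mitochondrial biogenesis.
Hspe1: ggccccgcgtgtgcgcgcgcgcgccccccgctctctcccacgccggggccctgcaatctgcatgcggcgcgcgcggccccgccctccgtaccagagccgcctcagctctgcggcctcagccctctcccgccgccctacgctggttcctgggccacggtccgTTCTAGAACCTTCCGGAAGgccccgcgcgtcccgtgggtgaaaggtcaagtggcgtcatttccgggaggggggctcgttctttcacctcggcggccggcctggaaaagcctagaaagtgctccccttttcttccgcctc
Tfam: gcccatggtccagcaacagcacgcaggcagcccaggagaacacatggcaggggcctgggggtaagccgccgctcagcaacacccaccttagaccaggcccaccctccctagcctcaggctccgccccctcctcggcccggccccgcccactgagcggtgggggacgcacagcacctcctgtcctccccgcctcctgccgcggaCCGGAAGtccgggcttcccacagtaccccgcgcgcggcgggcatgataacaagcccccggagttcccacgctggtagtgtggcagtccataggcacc
Polrmt: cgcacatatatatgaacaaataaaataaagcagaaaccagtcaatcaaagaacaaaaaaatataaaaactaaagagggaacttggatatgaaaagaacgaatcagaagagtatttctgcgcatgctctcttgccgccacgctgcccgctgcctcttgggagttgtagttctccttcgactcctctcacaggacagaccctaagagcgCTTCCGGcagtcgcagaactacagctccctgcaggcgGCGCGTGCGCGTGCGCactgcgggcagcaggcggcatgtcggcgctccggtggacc

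Both strands were searched. In the Hspe1 window the capitals hold 2 matches to a heat shock element of 3 units (alternating GAA and TTC, each 2 bases from the next), which begin 89 and 84 bases before the start site. These letters overlap 2 matches to the ETS motif that GABP binds (CCGGAAG), at 80 and 77 bases before it. The 3-unit heat shock element was found in 0.603% of 32851 mouse promoter windows of the same length, and the ETS motif in 8.86%. One of the 2 windows of Hspd1 covers the same stretch on the other strand and holds the same matches, and the other Hspd1 window holds an NRF1 motif (in 4.6% of windows) and an E-box (CACGTG, in 7.15%). The Tfam window holds an ETS motif. The Polrmt window holds an ETS motif and 2 overlapping NRF1 motifs. Of the others, Clpp and Yme1l1 hold ETS motifs, Lonp1 holds an E-box, and Trap1 and Atf5 hold none of these. These matches describe the letters and are no measure of binding.

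All 10 genes passed the count filter, with 195 counts in the lowest mouse of Polrmt and 18823 in the highest of Hspd1, and they were measured at totals of 17819486 to 35358711 counts per mouse. Per kilobase of exon, so that genes of different length can be compared, the order of the mean level over 13 mice was Hspd1 (185 CPM per kb), Atf5 (120), Hspa9 (115), Hspe1 (59.2), Trap1 (57.8), Lonp1 (29.5), Clpp (15.8), Yme1l1 (11.9), Tfam (9.98) and Polrmt (2.97). The mice overlapped between neighbours in this order, with 4 exceptions: Hspa9 and Hspe1, Trap1 and Lonp1, Lonp1 and Clpp, and Tfam and Polrmt did not overlap. Hspd1 shares 50.1% of its words of 31 bases with other transcripts, mostly pseudogenes, but the sharing genes together held 1.19% of its counts. For Hspe1 and Hspa9 these counts were at most 0.0105% of their own. However, ENSMUSG00000117621, which holds 334 of the 358 shared words of Hspe1, was not among the genes counted. Tfam and Yme1l1 shared 0.609% and 0.953% of their words, with genes whose counts together exceeded their own.

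**Figure D1:**
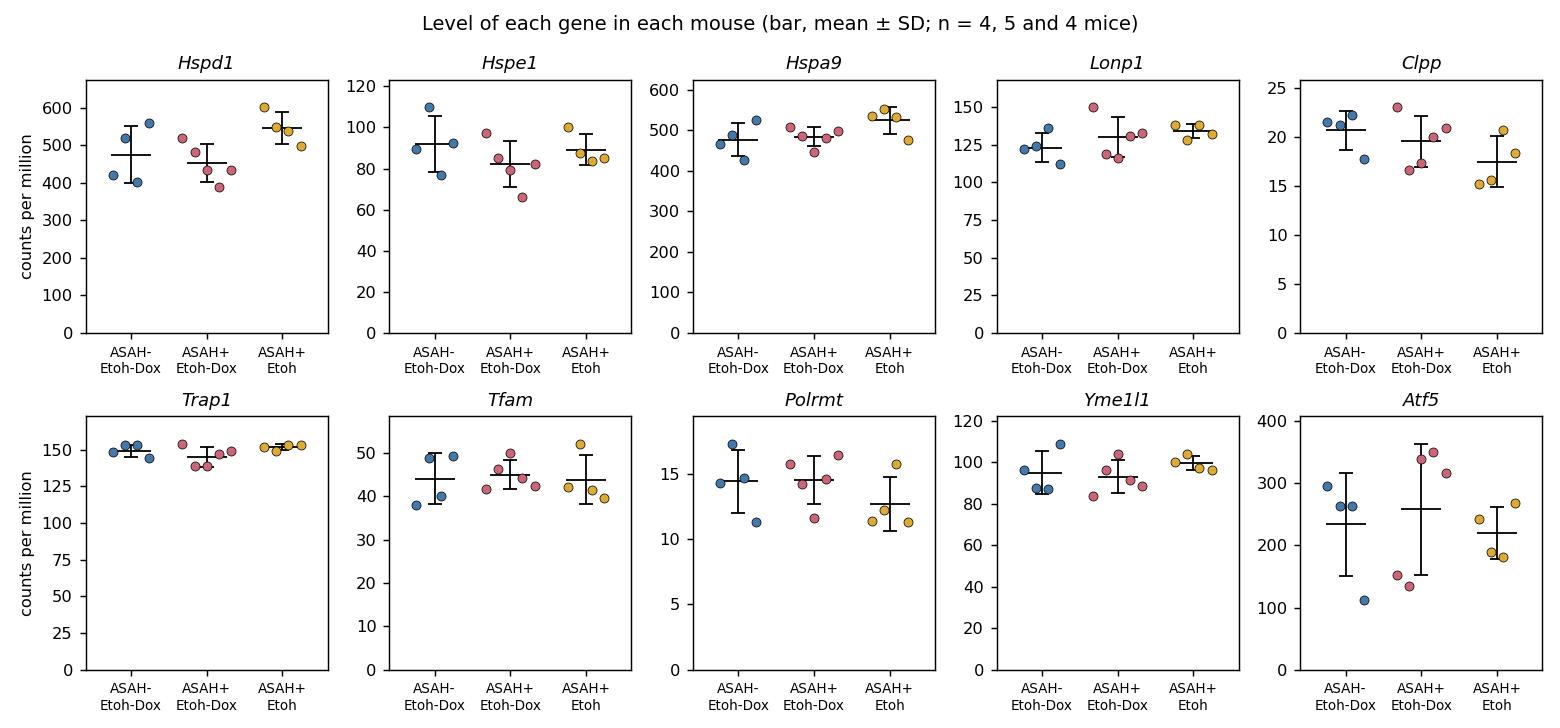
Level of each of the 10 genes in each mouse, in CPM (y axis, from 0), for ASAH− Etoh-Dox (n = 4), ASAH+ Etoh-Dox (n = 5) and ASAH+ Etoh mice (n = 4), with the mean and SD of each group. The groups overlapped for all 10 genes, Trap1 ranged from 139 to 154 CPM and Atf5 from 112 to 350 CPM.

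None of the 10 genes passed the threshold (adjusted p under 0.1 over 14317 genes) in any of the 4 comparisons. Among all genes, edgeR called 0.0140% between the genotypes on Etoh-Dox, 0.0140% between ASAH+ Etoh-Dox and ASAH+ Etoh, 0.0140% between ASAH− Etoh-Dox and ASAH+ Etoh, and 0.0419% between both Dox groups and ASAH+ Etoh. The limma-voom fit also called none of the 10, where it called 0.0140%, 0.0140%, 0.00698% and 0.0279% of all genes in the same order. DESeq2 on all mice called none of those to which it gave an adjusted p, which left out Clpp, Tfam and Polrmt in ASAH+ Etoh-Dox against ASAH+ Etoh. In the order of the comparisons above, DESeq2 called 0.0759%, 4.94%, 1.73% and 1.62% of the 15808, 1982, 8625 and 13050 genes to which it gave an adjusted p. At an unadjusted p under 0.05, edgeR counted 0, 1, 0 and 1 of the 10 in these comparisons, Hspd1 each time, where 2.86%, 7.29%, 9.19% and 10.1% of all genes were counted. No member's groups were free of overlap in any comparison, against 0.887%, 2.58%, 5.50% and 0.950% of all genes. The last 3 comparisons share the ASAH+ Etoh mice and all comparisons share mice with others, so their values are not independent. In whole-liver RNA, fewer cells of a type and less RNA per cell cannot be told apart.

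**Figure D2:**
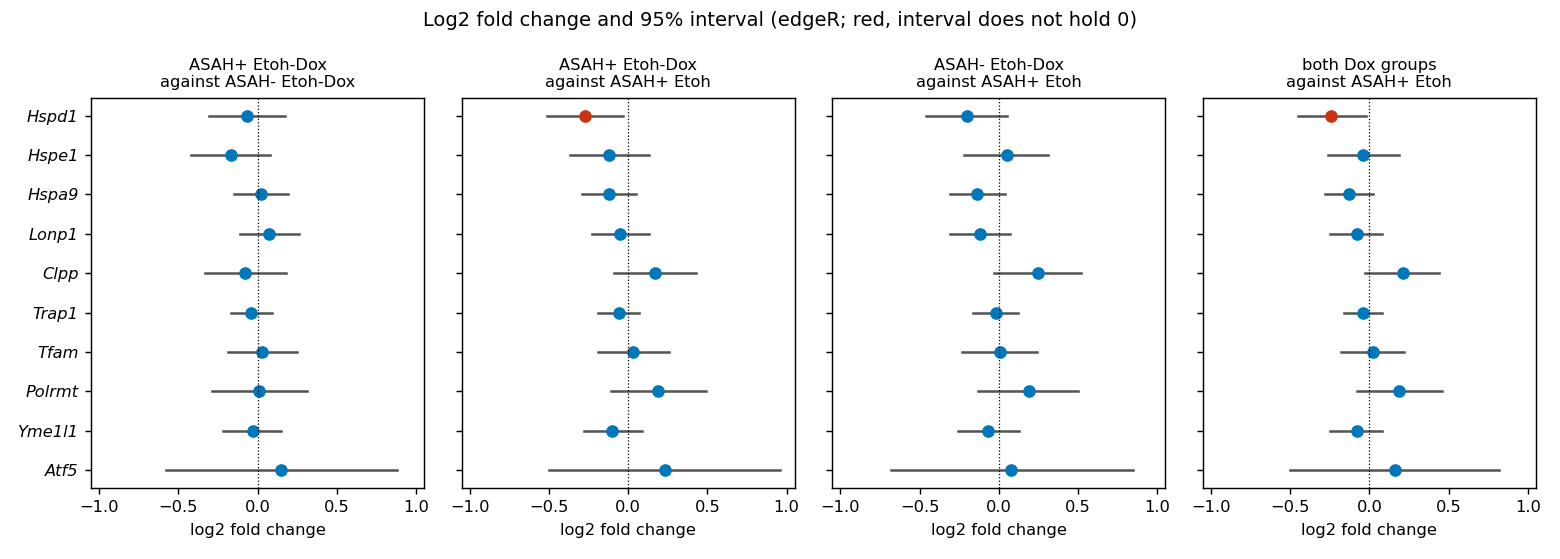
Log2 fold change (x axis) with its 95% interval for each of the 10 genes in the 4 comparisons. The interval of Hspd1 did not hold 0 in ASAH+ Etoh-Dox against ASAH+ Etoh (-0.27) and in both Dox groups against ASAH+ Etoh (-0.24), all others held 0, and those of Atf5 were the widest.

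Hspd1 (ENSMUSG00000025980, chr1:55077835-55088243, minus strand) encodes Hsp60, the matrix chaperone that folds imported proteins. Its level was 420, 520, 402 and 559 CPM in the ASAH− Etoh-Dox mice. It was 520, 483, 435, 390 and 435 CPM in the ASAH+ Etoh-Dox mice. It was 602, 549, 537 and 499 CPM in the ASAH+ Etoh mice. The mice without Dox lay at the upper end of the range, but ASAH− Etoh-Dox replicates 2 and 4 and ASAH+ Etoh-Dox replicate 1 were among them. The mean was 453 ± 50.2 CPM (SD, n = 5) in ASAH+ Etoh-Dox and 546 ± 42.6 CPM (SD, n = 4) in ASAH+ Etoh, a log2 fold change of -0.27 (SE 0.11, 95% interval -0.51 to -0.03), or 0.828-fold. The adjusted p was 0.626, and an exact permutation test (two-sided) gave p = 0.0317, where 0.00794 is the smallest this design allows. In 1 of 20 pairs of mice was the ASAH+ Etoh-Dox mouse the higher one.

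The ASAH− Etoh-Dox mean of 475 ± 76.2 CPM (SD, n = 4) lay between the others. Against ASAH+ Etoh its Hspd1 log2 fold change was -0.20 (SE 0.12, adjusted p = 0.649), and ASAH+ against ASAH− on Etoh-Dox it was -0.07 (SE 0.11, 95% interval -0.31 to 0.17, adjusted p = 1.00). With both Dox groups against ASAH+ Etoh it was -0.24 (SE 0.10, adjusted p = 0.461, exact permutation p = 0.0336), and 5 of 36 pairs of mice went the other way. The unadjusted p of this comparison ranged from 0.0111 to 0.120 when 1 mouse was left out, with ASAH+ Etoh replicate 1, the highest mouse, giving the largest. That of ASAH+ Etoh-Dox against ASAH+ Etoh ranged from 0.0127 to 0.0960, and the same mouse gave the largest.

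Hspe1 (ENSMUSG00000073676, chr1:55088132-55091307, plus strand) encodes Hsp10, the lid of the Hsp60 chamber. Its mean was 92.1 ± 13.6 CPM in ASAH− Etoh-Dox (SD, n = 4), 82.0 ± 11.2 CPM in ASAH+ Etoh-Dox (SD, n = 5) and 89.1 ± 7.57 CPM in ASAH+ Etoh (SD, n = 4). No difference exceeded the spread between mice: the log2 fold change was -0.17 (SE 0.12, adjusted p = 1.00) between the genotypes on Etoh-Dox and -0.04 (SE 0.10, adjusted p = 0.942) between both Dox groups and ASAH+ Etoh. The ratio of Hspd1 to Hspe1 counts, chosen after the values were seen and given without a test, was 4.70 to 6.06 in ASAH− Etoh-Dox, 5.27 to 5.90 in ASAH+ Etoh-Dox and 5.87 to 6.41 in ASAH+ Etoh. All 4 mice without Dox were at or above 5.87, and 2 of the Dox mice, with ratios of 6.06 and 5.90, were too.

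Hspa9 (ENSMUSG00000024359, chromosome 18) encodes mortalin, the mitochondrial Hsp70 that also drives import. Its level was 467, 489, 428 and 525 CPM in ASAH− Etoh-Dox and 508, 486, 447, 480 and 499 CPM in ASAH+ Etoh-Dox. In ASAH+ Etoh it was 535, 552, 534 and 477 CPM. Of the 4 mice without Dox, 3 were above every Dox mouse, and replicate 4 was inside their range. With both Dox groups against ASAH+ Etoh the log2 fold change was -0.13 (SE 0.07, 95% interval -0.28 to 0.02, adjusted p = 0.567, exact permutation p = 0.0462), and 6 of 36 pairs went the other way. Between the genotypes on Etoh-Dox it was 0.02 (SE 0.08, adjusted p = 1.00).

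Trap1 (ENSMUSG00000005981, chr16:4039971-4077827, minus strand) encodes the Hsp90 of mitochondria. It was the steadiest of the 10, at 149 ± 4.26 CPM (SD, n = 4) in ASAH− Etoh-Dox, 145 ± 6.74 CPM (SD, n = 5) in ASAH+ Etoh-Dox and 152 ± 2.08 CPM (SD, n = 4) in ASAH+ Etoh. Its coefficient of variation over 13 mice was 3.57%, and 0.289% of the 6227 genes at or above the mean level of Polrmt varied less. The 95% intervals of its log2 fold change ended within 0.19 of 0 in all 4 comparisons, the narrowest among these genes. Of 40 exact tests of single genes, 3 gave p under 0.05: both of Hspd1 above and that of Hspa9. With 1 mouse left out this count ranged from 0 to 4, and it was 0 without ASAH+ Etoh-Dox replicate 3 or 4 or ASAH+ Etoh replicate 1 or 2. The share of all genes that pass this exact test is not given here, so the count is no result about these 10 genes. At an unadjusted p under 0.05 with edgeR, the shares of all genes were 2.86%, 7.29%, 9.19% and 10.1% in the 4 comparisons.

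Lonp1 (ENSMUSG00000041168, chr17:56614297-56626887, minus strand) encodes the Lon protease, which degrades oxidized matrix proteins and also TFAM. Its mean was 123 ± 9.87 CPM in ASAH− Etoh-Dox (SD, n = 4), 130 ± 13.3 CPM in ASAH+ Etoh-Dox (SD, n = 5) and 134 ± 4.79 CPM in ASAH+ Etoh (SD, n = 4). The highest mouse, at 150 CPM, and 1 of the lowest, at 116 CPM, were both in ASAH+ Etoh-Dox. The log2 fold change farthest from 0 was -0.12 (SE 0.09, adjusted p = 0.726), in ASAH− Etoh-Dox against ASAH+ Etoh, and it was -0.23 (SE 0.07, unadjusted p = 0.00844, adjusted p = 0.440) with the GC slope of each mouse as a covariate, the slope of its log2 CPM, relative to the mean of all mice, on transcript GC content.

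Clpp (ENSMUSG00000002660, chr17:56990305-56996188, plus strand) encodes the proteolytic subunit of ClpXP. It was 21.6, 21.2, 22.3 and 17.8 CPM in ASAH− Etoh-Dox and 23.1, 16.7, 17.4, 20.0 and 20.9 CPM in ASAH+ Etoh-Dox. It was 15.2, 15.6, 20.7 and 18.4 CPM in ASAH+ Etoh. The lowest pair of mice had received no Dox, and the other mice of that group lay within the range of both Dox groups. The log2 fold change was 0.25 (SE 0.13, 95% interval -0.03 to 0.52, adjusted p = 0.587) in ASAH− Etoh-Dox against ASAH+ Etoh, 0.17 (SE 0.12, adjusted p = 0.787) in ASAH+ Etoh-Dox against ASAH+ Etoh and -0.08 (SE 0.12, adjusted p = 1.00) between the genotypes on Etoh-Dox.

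Yme1l1 (ENSMUSG00000026775, chr2:23156369-23199260, plus strand) encodes the ATP-dependent protease of the inner membrane that faces the intermembrane space. It measured 95.0 ± 10.2 CPM in ASAH− Etoh-Dox (SD, n = 4), 92.9 ± 7.95 CPM in ASAH+ Etoh-Dox (SD, n = 5) and 99.4 ± 3.37 CPM in ASAH+ Etoh (SD, n = 4). Its log2 fold changes lay between -0.10 and -0.03 with SE of 0.08 to 0.09, and the 95% interval of each held 0.

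Tfam (ENSMUSG00000003923, chr10:71225464-71238280, minus strand) encodes the protein that packages mitochondrial DNA and starts its transcription. Its means were 44.0 ± 5.82 CPM in ASAH− Etoh-Dox (SD, n = 4), 44.9 ± 3.36 CPM in ASAH+ Etoh-Dox (SD, n = 5) and 43.8 ± 5.61 CPM in ASAH+ Etoh (SD, n = 4). Its log2 fold changes were 0.01 to 0.03, with 95% intervals that ended within 0.26 of 0. Polrmt (ENSMUSG00000020329, chr10:79736123-79746581, minus strand) encodes the mitochondrial RNA polymerase. It was the least abundant gene, at 14.4 ± 2.43 CPM, 14.5 ± 1.83 CPM and 12.7 ± 2.06 CPM in the same order of groups. In each comparison with ASAH+ Etoh its log2 fold change was 0.19 (SE 0.13 to 0.15, adjusted p = 0.649 to 0.787), and between the genotypes on Etoh-Dox it was 0.01 (SE 0.14, adjusted p = 1.00). With the GC slope as a covariate, the Polrmt values against ASAH+ Etoh were 0.08 (SE 0.12) in ASAH+ Etoh-Dox and 0.01 (SE 0.13) in ASAH− Etoh-Dox. With both Dox groups that fit gave 0.04 (SE 0.11, adjusted p = 0.944). Without ASAH+ Etoh replicate 3 and without the covariate, both Dox groups gave 0.30 (adjusted p = 0.579).

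Atf5 (ENSMUSG00000038539, chr7:44812256-44816658, minus strand), the stress transcription factor, varied most from mouse to mouse. Its level was 295, 264, 264 and 112 CPM in ASAH− Etoh-Dox. It was 152, 135, 339, 350 and 317 CPM in ASAH+ Etoh-Dox. It was 243, 189, 181 and 268 CPM in ASAH+ Etoh. Low and high mice were found within both Dox groups, and the ASAH+ Etoh mice lay between these extremes. The coefficient of variation was 32.8%, above that of 95.0% of the 6227 genes at or above the mean level of Polrmt, whose median was 11.4%. With SE of 0.30 to 0.35 the comparisons could not resolve a small change: the log2 fold change was 0.15 (95% interval -0.58 to 0.88, adjusted p = 1.00) between the genotypes on Etoh-Dox and 0.16 (95% interval -0.50 to 0.82, adjusted p = 0.901) between both Dox groups and ASAH+ Etoh.

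Because the mice of a group differed, 12 pairs of genes were compared across the 13 mice, with p from 100000 permutations adjusted over the 12 pairs. The share of all gene pairs with an r as large is not given here. A pair that passes therefore shows no trait particular to these genes. Hspd1 rose with Hspe1 from mouse to mouse (r = 0.73, permutation p = 0.00364, adjusted p = 0.0218, Spearman's rho = 0.70, permutation p = 0.0102, adjusted p = 0.0450). After subtraction of the group means r was 0.82 (permutation p = 0.000410), but without the 2 mice farthest from the median of Hspd1 it was 0.53 (permutation p = 0.0961, adjusted p = 0.231), so the relation rests partly on those mice. Hspd1 also rose with Hspa9 (r = 0.81, permutation p = 0.00101, adjusted p = 0.0121, rho = 0.83, permutation p = 0.000800, adjusted p = 0.00960), with r = 0.74 within groups and r = 0.81 without the 2 farthest mice.

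Atf5 was higher in mice with less Hspd1 (r = -0.63, permutation p = 0.0227, adjusted p = 0.0907, rho = -0.69, permutation p = 0.0112, adjusted p = 0.0450). The r was -0.73 within groups and -0.69 without the 2 mice farthest from the median of Atf5. The other 9 pairs did not pass an adjusted p of 0.1. They included Atf5 with Atf4, which encodes the related stress factor (r = -0.12, permutation p = 0.686, and -0.60 with permutation p = 0.0519 without the 2 farthest mice). Atf5 with Lonp1 gave r = 0.11 (permutation p = 0.727) over all mice and -0.67 (permutation p = 0.0231, adjusted p = 0.0922) without the 2 farthest mice, so its sign rests on those mice. Tfam with Polrmt gave r = -0.23 (permutation p = 0.436) and 0.04 without them, and Tfam with mt-Co1, a transcript of the mitochondrial genome, gave r = -0.54 (permutation p = 0.0599, adjusted p = 0.180) and -0.29 without them. Lonp1 and Clpp, subunits of separate matrix proteases, gave r = 0.37 (permutation p = 0.221) over all mice, r = 0.77 (permutation p = 0.00204, adjusted p = 0.0122) within groups, and r = 0.13 (permutation p = 0.693) without the 2 farthest mice. Over all 45 pairs of the 10 genes, 26 were positive and 19 negative with a median r of 0.11. Leaving out 1 mouse changed how many of the 12 pairs passed: 1 pair without ASAH+ Etoh-Dox replicate 4, 5 pairs without ASAH− Etoh-Dox replicate 2, and 2 to 4 without each other mouse.

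**Figure D3:**
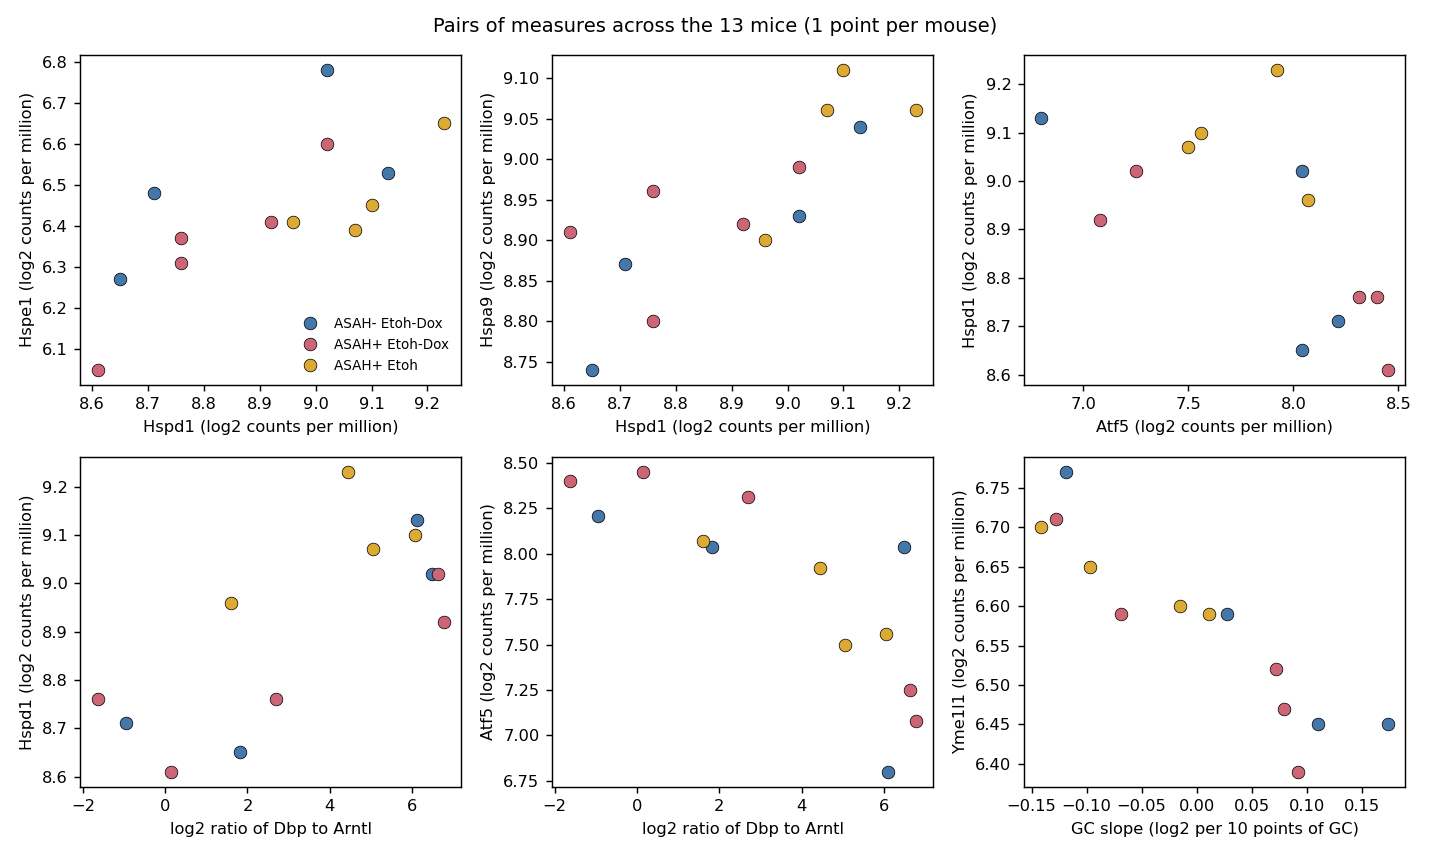
Pairs of measures with 1 point per mouse, coloured by group, with levels in log2 CPM. Hspd1 was high where Hspe1 (r = 0.73) and Hspa9 (r = 0.81) were high and where Atf5 was low (r = -0.63), Hspd1 and Atf5 followed the log2 ratio of Dbp to Arntl in opposite directions (r = 0.74 and -0.79), and Yme1l1 fell along the GC slope (r = -0.92).

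A pair of per-mouse measures, compared with the genes after the data were seen, moved with them. The first was the log2 ratio of Dbp to Arntl, clock-controlled genes that peak at opposite times of day. It ranged from -0.96 to 6.49 in ASAH− Etoh-Dox, from -1.64 to 6.78 in ASAH+ Etoh-Dox and from 1.60 to 6.06 in ASAH+ Etoh. The p-values were adjusted over the 10 genes for each measure.

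Atf5 was lower in mice with a higher ratio (r = -0.79, permutation p = 0.00150, adjusted p = 0.0150, rho = -0.82, permutation p = 0.000830, adjusted p = 0.00830), with r = -0.79 within groups and -0.78 without the 2 farthest mice. Hspd1 was higher in those mice (r = 0.74, permutation p = 0.00507, adjusted p = 0.0253), with r = 0.80 within groups and 0.71 without the 2 farthest mice, and its rho of 0.57 (permutation p = 0.0473) had an adjusted p of 0.118. Hspa9 gave r = 0.67 (permutation p = 0.0133, adjusted p = 0.0444) and Hspe1 gave r = 0.60 (permutation p = 0.0299, adjusted p = 0.0747), each with rho = 0.59 (permutation p = 0.0397 and 0.0388, adjusted p = 0.118). Without the 2 farthest mice these were 0.55 and 0.74. The other 6 genes did not pass. No share of all genes tested that follow this ratio is given here. Whether these genes follow it more often than others was not tested. With this ratio as a covariate in edgeR, the log2 fold change of Hspd1 in both Dox groups against ASAH+ Etoh was -0.19 (SE 0.07, adjusted p = 0.339), and the SE of Atf5 was 0.20 where it had been 0.30. The hour at which each liver was taken is not given in the sources used here, and its part in these values was not tested.

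The second measure was the GC slope of each mouse, the slope of log2 CPM (relative to the mean of all mice) on the GC content of 14302 genes' transcripts. It ran from -0.141 to 0.174 log2 units per 10 points of GC, and it varied with r = -0.13 against the Dbp to Arntl ratio. The 5 genes with the GC-poorest transcripts had a negative r with it, and the 5 with the GC-richest a positive r. Because the slope is fitted on the GC content of all these genes, GC-poor genes tend to a negative r and GC-rich genes to a positive r by construction. The signs and p-values here therefore describe the 10 genes and show no trait particular to them. The share of all genes with such an r is not given here. Yme1l1, the GC-poorest at 38.2%, gave r = -0.92 (adjusted permutation p = 1.00e-04, the smallest that the permutations allow, rho = -0.96) and r = -0.92 without the 2 farthest mice. Clpp, at 58.3% GC, gave r = 0.86 (permutation p = 0.000360, adjusted p = 0.00180, rho = 0.86, permutation p = 0.000410), with r = 0.82 without the 2 farthest mice. Polrmt, at 59.0% GC, gave r = 0.74 (permutation p = 0.00556, adjusted p = 0.0185, rho = 0.70, permutation p = 0.00898), with r = 0.79 without them. For Trap1 (r = 0.57, permutation p = 0.0416) and Tfam (r = -0.56, permutation p = 0.0471) the adjusted p was 0.0941 each. The slopes were -0.141 to 0.0117 in the ASAH+ Etoh mice and -0.128 to 0.174 in the Dox mice.

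With the GC slope as a covariate in edgeR, the log2 fold change of Clpp in both Dox groups against ASAH+ Etoh was 0.07 (SE 0.08, adjusted p = 0.829), where it had been 0.21 (SE 0.11, adjusted p = 0.544). In the same fit that of Hspd1 was -0.18 (SE 0.11, adjusted p = 0.637). That of Lonp1 moved away from 0, to -0.17 (unadjusted p = 0.0150, adjusted p = 0.394, the lowest of the 10 genes in that fit), where it had been -0.08 (SE 0.08, adjusted p = 0.749). Trap1, at 55.4% GC, and Lonp1, at 56.9%, gave r = 0.88 and r = 0.84 with the slope within groups, and Lonp1 and Clpp, which moved together within groups, both have GC-rich transcripts. The part of the GC slope in these values was not tested further.

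**Figure D4:**
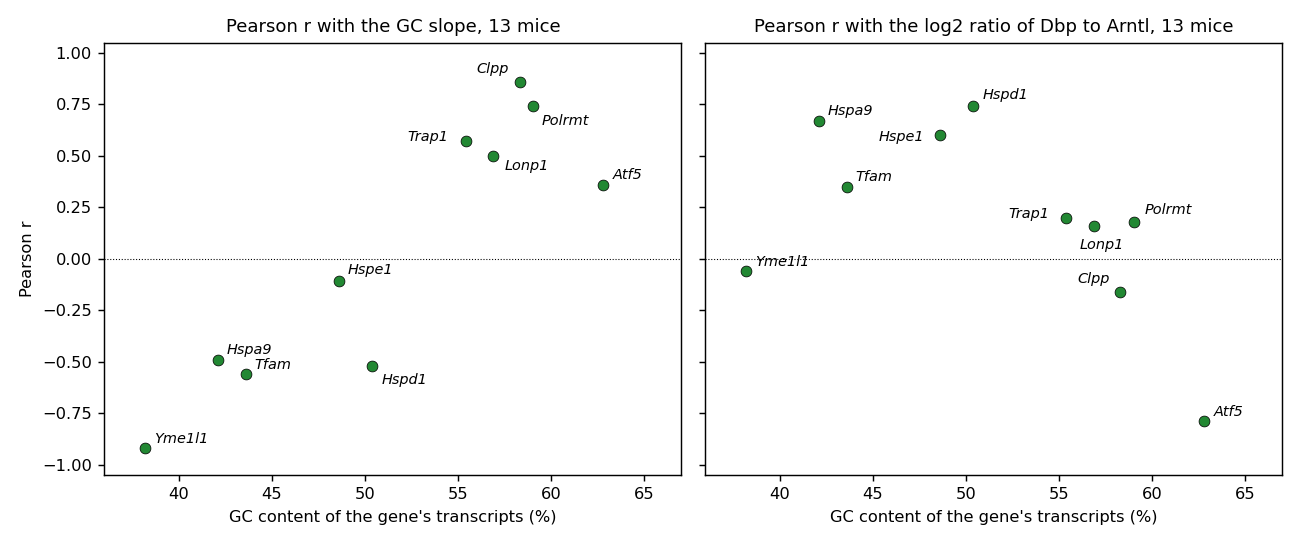
Pearson r of each of the 10 genes over 13 mice with the GC slope (left) and with the log2 ratio of Dbp to Arntl (right), plotted against the GC content of the gene's transcripts in percent. Yme1l1 (38.2% GC, r = -0.92) and Clpp (58.3% GC, r = 0.86) lie at opposite ends of the left panel, and in the right panel Atf5 (r = -0.79) stands apart from Hspd1, Hspa9 and Hspe1 (r = 0.74, 0.67 and 0.60).

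Over all genes tested, those most like Hspd1 across the 13 mice were Idh3a (r = 0.93), a subunit of the mitochondrial isocitrate dehydrogenase, Lpgat1 (r = 0.92) and Slmap (r = 0.91). Those most like Lonp1 were Pcsk6 (r = 0.91), Letm1 (r = 0.89), of the inner mitochondrial membrane, and Zfyve1 (r = 0.88). Those most like Tfam were Abcd2 (r = 0.93), a peroxisomal fatty acid transporter, Zfp280c (r = 0.91) and E230016M11Rik (r = 0.86). Among those most like Atf5 were Hao2, a peroxisomal oxidase, and Amt, of the glycine cleavage system (r = 0.94 each). Each was picked as the highest among 14316 genes, so these values are a description with no test.

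Of the other genes of these pathways, none passed the threshold with edgeR between the genotypes on Etoh-Dox or in ASAH+ Etoh-Dox against ASAH+ Etoh, while DESeq2 on all mice called 7 in the latter, which were mt-Nd2, mt-Nd3, mt-Co2, mt-Co3, Pmpcb (-0.22, adjusted p = 0.0486), Dnaja3 (-0.16, adjusted p = 0.0964) and Hsp90ab1 (-0.29, adjusted p = 0.0998). That is beside 4.94% of the 1982 genes that its filter on low means left with an adjusted p, and on the compared mice alone it called 3 of these genes, with 13584 genes left. Of the 10 other mitochondrial chaperones and co-chaperones, the smallest p belonged to Grpel1, the nucleotide exchange factor of mortalin, between the genotypes on Etoh-Dox (log2 fold change -0.15, SE 0.08, adjusted p = 1.00). In ASAH+ Etoh-Dox against ASAH+ Etoh it was Dnaja3, a co-chaperone of mortalin (-0.15, SE 0.06, adjusted p = 0.621), and in the 2 other comparisons Clpb, a disaggregase (-0.21, SE 0.09, adjusted p = 0.495 in ASAH− Etoh-Dox against ASAH+ Etoh, and -0.16, SE 0.07, adjusted p = 0.494 with both Dox groups). The median log2 fold change of these 10 genes was -0.08, -0.02, 0.05 and 0.01 in the 4 comparisons, and that of all genes tested lay between -0.00225 and 0.0165. In the same order 9, 7, 3 and 5 of these 10 genes were negative, beside 50.7%, 47.0%, 46.8% and 47.0% of all genes.

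Of the 17 other proteases and their partners, the smallest p belonged to Htra2, Pmpcb, Xpnpep3 and Pmpcb in the 4 comparisons. Pmpcb, a subunit of the peptidase that removes import signals, had a log2 fold change of -0.18 (SE 0.06, adjusted p = 0.367) in both Dox groups against ASAH+ Etoh with edgeR, and DESeq2 on all mice called it there (-0.20, adjusted p = 0.0954). Xpnpep3 gave -0.22 (SE 0.09, unadjusted p = 0.0314) in ASAH− Etoh-Dox against ASAH+ Etoh, and Htra2 0.15 (SE 0.13, adjusted p = 1.00) between the genotypes. Of the 19 other mitochondrial DNA maintenance and transcription genes, these were Mgme1, an exonuclease of mitochondrial DNA (0.24, SE 0.12, adjusted p = 1.00, between the genotypes), Lrpprc, a stabilizer of mitochondrial mRNA (-0.22, SE 0.08, adjusted p = 0.593, in ASAH+ Etoh-Dox against ASAH+ Etoh, and -0.18, SE 0.07, adjusted p = 0.433, with both Dox groups), and Mterf3 (-0.20, SE 0.10, adjusted p = 0.587, in ASAH− Etoh-Dox against ASAH+ Etoh). Of the 9 biogenesis regulators, these were Ppargc1a, the coactivator PGC-1alpha, in the 2 comparisons of ASAH+ Etoh-Dox (-0.26, SE 0.24, adjusted p = 1.00, and -0.30, SE 0.24, adjusted p = 0.816), Nrf1 (0.21, SE 0.12, adjusted p = 0.651) and Yy1 (-0.17, SE 0.11, adjusted p = 0.626).

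Of the ATF4-CHOP stress genes 15 of 16 were tested (Asns had too few counts) and edgeR called none. Fgf21, a stress-induced hepatokine, had the smallest p between the genotypes on Etoh-Dox (-0.57, SE 0.41, adjusted p = 1.00) and in ASAH− Etoh-Dox against ASAH+ Etoh (0.95, SE 0.44, adjusted p = 0.552). Dele1, which relays mitochondrial stress to ATF4, had it in ASAH+ Etoh-Dox against ASAH+ Etoh (0.14, SE 0.07, adjusted p = 0.681) and with both Dox groups (0.13, SE 0.06, adjusted p = 0.491). Of the cytosolic heat shock genes 10 of 11 were tested and edgeR called none, with 0, 2, 1 and 3 at an unadjusted p under 0.05 in the 4 comparisons, where 2.86%, 7.29%, 9.19% and 10.1% of all genes had one. DESeq2 on all mice called Hsp90ab1 in ASAH+ Etoh-Dox against ASAH+ Etoh, as given above. All 10 had a negative log2 fold change in each comparison with ASAH+ Etoh, with medians of -0.32, -0.30 and -0.35, where 47.0%, 46.8% and 47.0% of all genes were negative, while between the genotypes 5 were positive and 5 negative. The smallest p in these comparisons belonged to Hsp90ab1 (-0.28, SE 0.10, adjusted p = 0.551) in ASAH+ Etoh-Dox and to Hspa4l in ASAH− Etoh-Dox (-0.44, SE 0.14, adjusted p = 0.389) and in both Dox groups (-0.35, SE 0.12, adjusted p = 0.367), and Hspa4l also between the genotypes (0.18, SE 0.13, adjusted p = 1.00).

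Of the 13 mRNAs of the mitochondrial genome, which Polrmt and Tfam transcribe, mt-Co2 and mt-Co3 were called higher in ASAH− Etoh-Dox against ASAH+ Etoh (1.50, SE 0.22, adjusted p = 0.0800, and 0.74, SE 0.10, adjusted p = 0.0633) and in both Dox groups against ASAH+ Etoh (1.20, SE 0.20, adjusted p = 0.0879, and 0.58, SE 0.09, adjusted p = 0.0691). Between the genotypes on Etoh-Dox mt-Co3 had the smallest p (-0.32, SE 0.10, adjusted p = 1.00), as in ASAH+ Etoh-Dox against ASAH+ Etoh (0.42, SE 0.10, adjusted p = 0.409). In the 2 comparisons with calls, the count of 2 was kept, of 13 fits that left out 1 mouse, only in that without ASAH− Etoh-Dox replicate 4. At an unadjusted p under 0.05, 3 of the 13 mRNAs had a negative log2 fold change between the genotypes on Etoh-Dox (mt-Co2, mt-Co3 and mt-Nd3, against 2.86% of all genes in either direction). A positive one at that p was found for 5 in ASAH+ Etoh-Dox, 5 in ASAH− Etoh-Dox and 7 in both Dox groups against ASAH+ Etoh (7.29%, 9.19% and 10.1% of all genes in either direction), and 10, 11 and 11 of the 13 were positive there, beside 53.0%, 53.2% and 53.0% of all genes. DESeq2 on all mice also called mt-Nd2 and mt-Nd3, which encode subunits of respiratory complex I, in ASAH− Etoh-Dox against ASAH+ Etoh (0.28, adjusted p = 0.0355, and 0.74, adjusted p = 0.000816) and in both Dox groups (0.28, adjusted p = 0.00446, and 0.60, adjusted p = 0.00297). With edgeR mt-Nd2 gave 0.29 (SE 0.07, adjusted p = 0.296) and mt-Nd3 0.61 (SE 0.12, adjusted p = 0.265) in both Dox groups. Whether these genes share sequence with nuclear copies was not tested. The values of mt-Co2 and mt-Co3 are uncertain, because nearly all their words of 31 bases also occur in nuclear copies. Gm28661 holds 651 of the 654 words of mt-Co2, and Gm28437 holds 753 of the 754 of mt-Co3. The authors' estimation divides the reads among a gene and its copies. When the counts of each gene and its copy were summed, a fit chosen after seeing the data, the calls of edgeR were lost: the log2 fold change in both Dox groups against ASAH+ Etoh was 0.26 (SE 0.07, adjusted p = 0.318) for mt-Co2 and 0.23 (SE 0.07, adjusted p = 0.334) for mt-Co3. With the summed counts limma-voom called neither gene in any comparison (lowest adjusted p = 0.377). DESeq2 on all mice lost both in ASAH− Etoh-Dox against ASAH+ Etoh (adjusted p = 0.125 for mt-Co2 and 0.170 for mt-Co3) and kept both in ASAH+ Etoh-Dox (0.23, adjusted p = 0.0947, and 0.21, adjusted p = 0.0985) and in both Dox groups (0.24, adjusted p = 0.0717, and 0.22, adjusted p = 0.0962) against ASAH+ Etoh. The summed mt-Co3 level was 9718 to 10303 CPM in ASAH− Etoh-Dox, 9098 to 10609 CPM in ASAH+ Etoh-Dox and 7482 to 9301 CPM in ASAH+ Etoh.

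**Figure D5:**
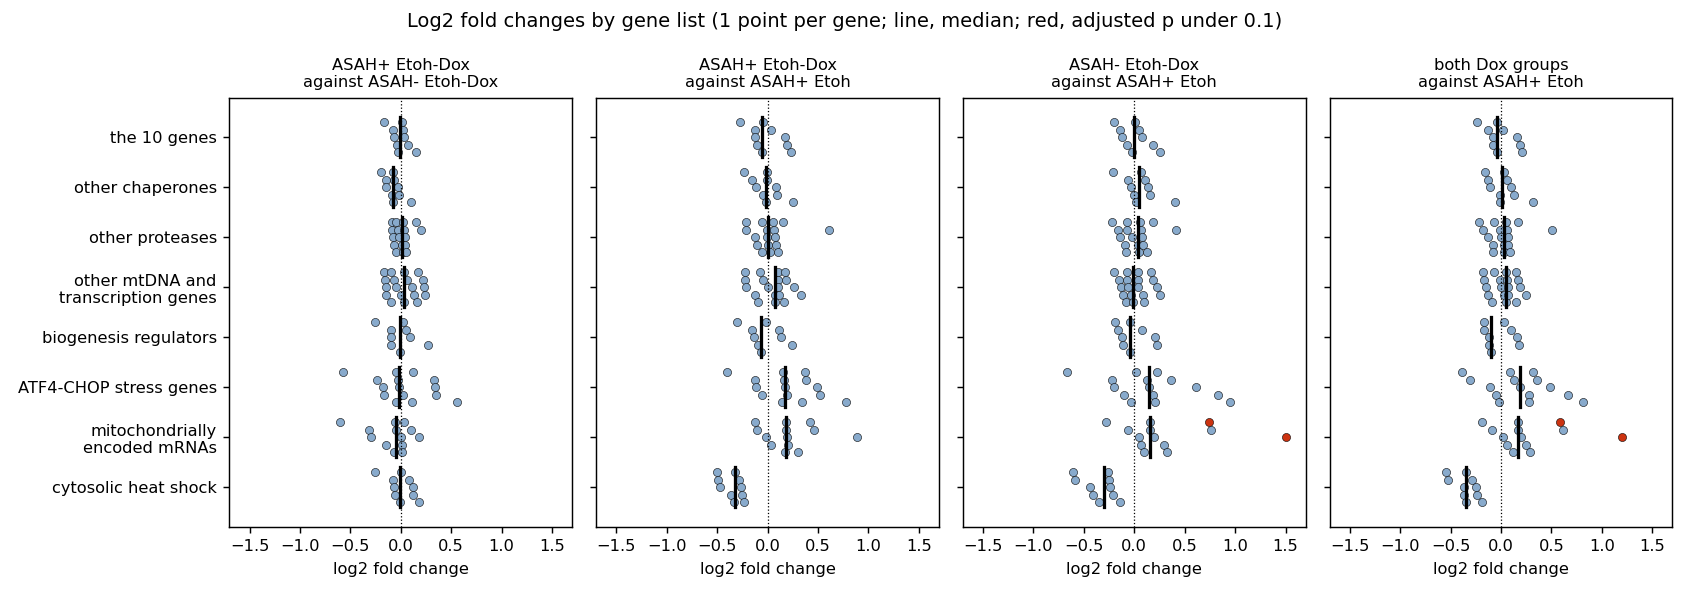
Log2 fold change (x axis) of each gene of the 8 lists in the 4 comparisons, with the median of each list as a line and called genes in red. The 10 genes stayed between -0.27 and 0.25, the red points are mt-Co2 and mt-Co3, and the cytosolic heat shock genes lie left of 0 in the 3 comparisons with ASAH+ Etoh.

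Hepatocyte markers summed to 82066 to 131954 CPM per mouse. edgeR called no gene of the 8 marker lists of liver cell types in any comparison, where it called 0.0140% to 0.0419% of all genes. The Kupffer cell and macrophage markers summed to 332 to 696 CPM in ASAH− Etoh-Dox, 245 to 473 CPM in ASAH+ Etoh-Dox and 255 to 315 CPM in ASAH+ Etoh, and the red cell markers to 135 to 989, 157 to 531 and 90.8 to 125 CPM. The Kupffer cell and macrophage sums did not overlap between ASAH− Etoh-Dox and ASAH+ Etoh. The red cell sums did not overlap between ASAH+ Etoh and either Dox group. The stellate cell markers summed to 234 to 280, 181 to 231 and 196 to 248 CPM in the same order, without overlap between the genotypes on Etoh-Dox. The sums of the other lists overlapped between all groups. The part of these cells in the values above was not tested. Messenger RNA of the mitochondrial genome made up 7.18 to 7.73% of a mouse's counts in ASAH− Etoh-Dox, 6.63 to 7.43% in ASAH+ Etoh-Dox and 5.61 to 6.97% in ASAH+ Etoh, without overlap between the first and the last. This share holds the uncertain rows of mt-Co2 and mt-Co3. Without them, a choice made after seeing the data, it was 6.07 to 6.56%, 5.84 to 6.61% and 5.03 to 6.43%, and with their copies added 7.92 to 8.48%, 7.62 to 8.54% and 6.46 to 8.16%, and the first and the last group overlapped in both.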

How the data were processed

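Whole-liver RNA of 13 mice was sequenced as single-end reads of 100 bp from poly(A)-selected, strand-specific libraries. Salmon and GRCm38.p6 are the tool and build named in the submitters' processing notes, and the authors deposited estimated counts per gene (expected counts) as whole numbers, not scaled for library size. Reads that fit several transcripts are divided by estimated abundance, which makes genes with near-identical copies uncertain. GENCODE M21 gave names and coordinates for 53355 of 53392 identifiers. Labels do not say whether mice were run in batches.

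edgeR 4.0.16 in R 4.3.3 (filterByExpr, TMM, robust quasi-likelihood fit of 3 group means over 13 mice) tested 14317 genes. The SE is the log2 fold change over the square root of F. P-values were adjusted by Benjamini-Hochberg over all genes, with 0.1 as the threshold. Single genes were also compared by an exact two-sided permutation test of mean log2 CPM (prior count 2), and pairs by 100000 permutations. Intervals are at 95%. DESeq2 1.42.0, limma 3.58.1 (voom), other scalings, filters, covariates, a replicate block and each mouse left out in turn were alternatives. A check on simulated data was also run, but its outcome and the tests it covered are not given here. It therefore does not show how small a change the tests used here could resolve.

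The members and gene lists were chosen with earlier results of these data known. The genes named were the 10 members, Asah1, of each other list and comparison every called gene (at most 5) or, where none was called, the gene with the smallest p, the partners of the pairs, and the 3 genes with the largest r for Hspd1, Lonp1, Tfam and Atf5. 1 gene that this rule names for Atf5 is not reported here. The mt-Co2 and mt-Co3 copies and the markers of per-mouse state were named after their values were seen. No 2 mice of a group agreed within counting noise (chi-square per degree of freedom of 18.4 to 104 over 22 pairs). Reads were amplified without molecular identifiers, so counting error understates technical error. The average transcript lengths per mouse were not used here.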

Additional observations from a re-analysis of the deposited data

Results flagged for a closer look

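Of 30 group-by-gene sets of 4 or 5 mice, 1 held a mouse far from the rest of its group on the log2 scale, and none did on the CPM scale. It was Atf5 in ASAH− Etoh-Dox replicate 4, at 112 CPM, where the other mice of that group were at 264, 264 and 295 CPM. Chance alone marks about 1 in 20 such sets. The same mouse had the highest Hspd1 of its group, at 559 CPM, and a log2 ratio of Dbp to Arntl of 6.11. Without it the log2 fold change of Atf5 between the genotypes on Etoh-Dox was -0.09 (adjusted p = 0.989), where it was 0.15 with it.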

How the results depend on the processing

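No setting called any of the 10 genes in any comparison, including DESeq2, limma-voom, other scalings and filters, both covariates and each mouse left out. A stricter threshold (adjusted p under 0.05) on the same edgeR values could call none by construction. The lowest adjusted p was 0.218 (Hspd1, ASAH+ Etoh-Dox against ASAH+ Etoh, DESeq2). DESeq2 on all mice gave no adjusted p to Clpp, Tfam and Polrmt in that comparison. Of 580 values of single genes under the settings other than leaving out a mouse, 563 kept their direction, and of 520 with 1 mouse left out 488 did. The 17 and 32 others came from values within 0.23 and 0.15 of 0, and most values of the 10 genes lie in these ranges. The GC slope as a covariate was chosen after seeing the data. "Groups compared only" gave no value for both Dox groups against ASAH+ Etoh, which use all mice. The cause of each change below was not tested.

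In ASAH+ against ASAH− on Etoh-Dox the sign changed for Tfam with the GC slope (-0.01) and, with the replicate block, for Polrmt (-0.03) and Atf5 (-4.5e-03). In ASAH+ Etoh-Dox against ASAH+ Etoh it changed for Atf5 with the Dbp to Arntl ratio (-0.03). In ASAH− Etoh-Dox against ASAH+ Etoh it changed for Tfam with DESeq2 on all or on the compared mice, DESeq2's size factors, and without Asah1 or the mitochondrially encoded genes (-0.01 each), on the groups compared (-3.7e-03) and without a count filter (-1.9e-04), for Yme1l1 with the GC slope (0.05), and for Atf5 with the Dbp to Arntl ratio (-0.04) and the GC slope (-0.15). In both Dox groups against ASAH+ Etoh it changed for Yme1l1 with the GC slope (0.01) and for Atf5 with the ratio (-0.04) and the slope (-0.02).

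With 1 mouse left out, log2 fold changes between the genotypes on Etoh-Dox ranged from -0.14 to 0.02 for Hspd1, -0.03 to 0.07 for Hspa9, -0.03 to 0.09 for Tfam, -0.09 to 0.11 for Polrmt, -0.07 to 0.04 for Yme1l1 and -0.09 to 0.31 for Atf5. Against ASAH+ Etoh they ranged from -0.02 to 0.13 for Tfam in ASAH+ Etoh-Dox, from -0.05 to 0.13 for Hspe1, -0.06 to 0.10 for Tfam and -0.07 to 0.32 for Atf5 in ASAH− Etoh-Dox, and from -0.08 to 0.03 for Hspe1 and -0.04 to 0.11 for Tfam in both Dox groups.

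Of the other lists, DESeq2 called 7 genes on all mice (mt-Nd2, mt-Nd3, mt-Co2, mt-Co3, Pmpcb, Dnaja3 and Hsp90ab1) and 3 on the compared mice in ASAH+ Etoh-Dox against ASAH+ Etoh, where edgeR called 0 and DESeq2 4.94% and 0.839% of the genes with an adjusted p. In ASAH− Etoh-Dox against ASAH+ Etoh, where edgeR called 2, DESeq2 called 4 in either fit (1.73% and 1.57% of such genes), limma-voom 1 and edgeR with the Dbp to Arntl ratio 1. It called 0 with the GC slope, the replicate block, the groups compared or an adjusted p under 0.05. In both Dox groups against ASAH+ Etoh DESeq2 called 5 (1.62% of such genes), edgeR with the ratio 1, and edgeR 0 with the slope, the replicate block or the stricter threshold. Leaving out the mitochondrially encoded genes gives 0 in both comparisons by construction, since it removes both called genes, mt-Co2 and mt-Co3. Each of these counts ranged from 0 to 2 with 1 mouse left out, and stayed at 2 only without ASAH− Etoh-Dox replicate 4. The number of the 40 exact tests with p under 0.05 ranged from 0 to 4, and of the 12 pairs that passed from 1 to 5, with 1 mouse left out.

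The replicate numbers do not pair the mice: same-numbered mice deviated together with a mean r of -0.0462, 2 of 12 such pairs exceeded 0.1, and 0 of 13 mice correlated best with their own number. The replicate block changed no call of the 10 genes.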
